A study of Mus musculus with 4 samples.

Results

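The Rtl1-antisense microRNAs (miRNAs) are a small group cut from 1 transcript that runs against Rtl1 in the imprinted Dlk1-Dio3 region of mouse chromosome 12. They were taken by name as mmu-miR-431, mmu-miR-433, mmu-miR-127, mmu-miR-434-5p, mmu-miR-434-3p and mmu-miR-136 (written below without the species prefix), which is 6 of the 650 miRNA names on the array. The array names match RefSeq's miR-431-5p, miR-433-3p, miR-127-3p and miR-136-5p, and both arms of the miR-434 hairpin are on the array under their arm names.

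The miRNAs were measured in total RNA of untreated C57BL/6J mouse embryonic fibroblasts (MEFs) with or without the gene Lats2, a kinase of the Hippo pathway. The knockout (KO, genotype Lats2-/-) was 1 clone at population doubling levels (PDL) 70 and 96, and the wild type (WT, Lats2+/+ littermate) was 1 other clone at PDL 68 and 90. Each of the 4 samples was run on 1 single-colour Agilent array. Replicates are thus 1 clone sampled at an earlier and a later PDL, so their spread does not cover the spread between clones, and clone and genotype cannot be told apart. The array carries no Lats2 mRNA probe, so the knockout itself was not checked here.

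Rtl1 is a gene derived from a retrotransposon that is expressed from the paternal chromosome and is needed in the mouse placenta and its fetal vessels. The antisense transcript and the long noncoding RNAs beside it are expressed from the maternal chromosome, under the control of a region that is methylated on the paternal copy. Because the miRNAs are cut from the strand opposite to Rtl1, they pair with its mRNA along their whole length and can direct its cleavage. Like other miRNAs they can also repress mRNAs that match only their seed, bases 2 to 8 from the 5′ end. In a bulk culture, fewer cells with a miRNA and less of it per cell cannot be told apart.

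The mature sequences are shown because the members are joined by their place in the genome and not by their seeds. They are RefSeq's (GRCm38.p6), 5′ to 3′, with the seed in capitals.
miR-431: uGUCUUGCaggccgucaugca
miR-433: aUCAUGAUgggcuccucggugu
miR-127: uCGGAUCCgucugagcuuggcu
miR-434-5p: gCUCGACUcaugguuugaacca
miR-434-3p: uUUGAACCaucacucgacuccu
miR-136: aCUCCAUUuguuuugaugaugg
No pair of members has the same seed, and 0 other mature miRNAs in the RefSeq table share any of their seeds. The G and C content ran from 36.4% in miR-136 to 59.1% in miR-127. The longest run of bases that a pair of members had in common was UUUGAACCA, 9 bases, in the arms of miR-434. Both arms lie in 1 hairpin, which is shown with the measured arms in capitals because it is the only member hairpin with both arms in the group.
Mir434: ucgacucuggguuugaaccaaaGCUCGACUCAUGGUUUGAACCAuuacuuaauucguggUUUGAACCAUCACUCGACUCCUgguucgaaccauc
All 5 hairpins of the members lie within the span of Rtl1 in the RefSeq gene table. That span holds 15 miRNA genes in all, so it does not set the members apart.

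The array reads each member with a pair of probes that are complementary to its 3′ part and differ by 1 base. The longer probes are shown because in every member they gave the signal that was analysed. The base that the shorter probe lacks is in capitals.
miR-431: tgcatgacggcctgC
miR-433: acaccgaggagccC
miR-127: agccaagctcagacggaT
miR-434-5p: tggttcaaaccatgagtcG
miR-434-3p: aggagtcgagtgatggtT
miR-136: ccatcatcaaaacaaatggagT
The probe of miR-136 covered all 22 bases of its miRNA, while that of miR-433 covered bases 9 to 22 and that of miR-431 bases 7 to 21, so for most members the seed is not wholly read. The longest run in which a probe also matched another mature miRNA of the table was 8 to 11 bases. In the files the probes lie on mm9 at chr12:110828676-110828689 (miR-431), chr12:110830000-110830012 (miR-433), chr12:110831103-110831119 (miR-127), chr12:110832742-110832759 (miR-434-5p), chr12:110832780-110832796 (miR-434-3p) and chr12:110833542-110833562 (miR-136). Brightness depends on the probe, so the values of different members below give no order of abundance.

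All 6 members were measured above background in KO and none was in WT. Signals are the scanner's background-subtracted intensities after scaling each array to its 75th percentile, in units that fall below 0 where a spot is dimmer than its background. The scanner flags spots that are well above background, and a member counts as such on an array if most of its spots carry the flag. The lowest signal of any probe well above background was 15.2 and 12.5 units on the KO arrays at PDL 70 and 96, and 14.8 and 15.5 units on the WT arrays at PDL 68 and 90. Values after ± in the next paragraphs are the SD over the spots of 1 array. Spots are repeats within an array and not samples. How many other miRNAs had KO and WT spots that did not overlap was not counted. By array means, both KO arrays lay above both WT arrays for 60.4% of the miRNAs tested below.

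miR-431, whose hairpin comes first of the members' along the chromosome, gave 37.9 ± 2.99 and 33.3 ± 3.24 units in KO at PDL 70 and 96. In WT it gave -4.86 ± 1.25 and -0.581 ± 1.70 units at PDL 68 and 90. The lowest of its 20 KO spots (28.1 units) lay above the highest of its 20 WT spots (1.98 units).

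miR-433, the next member along, was the dimmest against the background limit. It gave 18.4 ± 1.89 and 15.8 ± 2.21 units in KO, with 62.5% and 70% of its spots well above background, and -3.02 ± 1.56 and 4.94 ± 1.59 units in WT. Its KO and WT spots did not overlap, but they came closest of the 6 members, at 11.6 and 7.35 units. The WT arrays differed from each other more for miR-433 than the KO arrays did.

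miR-127, best known for repressing the transcriptional repressor BCL6 in human cancer cells, gave 124 ± 12.3 and 102 ± 9.53 units in KO. In WT it gave -3.92 ± 1.67 and -0.190 ± 2.40 units. Every KO spot, from 91.7 units upward, was far above every WT spot, of which the highest was 2.96 units.

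The miR-434 hairpin was measured on both arms. miR-434-5p gave 26.3 ± 3.23 and 22.8 ± 2.98 units in KO against -5.04 ± 1.37 and -4.93 ± 2.10 units in WT. miR-434-3p gave 53.7 ± 7.41 and 48.4 ± 7.08 units in KO against -6.09 ± 1.26 and 1.98 ± 1.96 units in WT. Both arms were thus high on the KO arrays and near or below 0 on the WT arrays, although the probes of the arms read different stretches of the hairpin.

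miR-136, the last member along the chromosome, gave 51.2 ± 8.44 and 42.4 ± 2.62 units in KO against -1.49 ± 2.45 and 0.501 ± 1.87 in WT. Its lowest KO spot, 33.2 units, lay above its highest WT spot, 3.88 units.

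**Figure D1:**
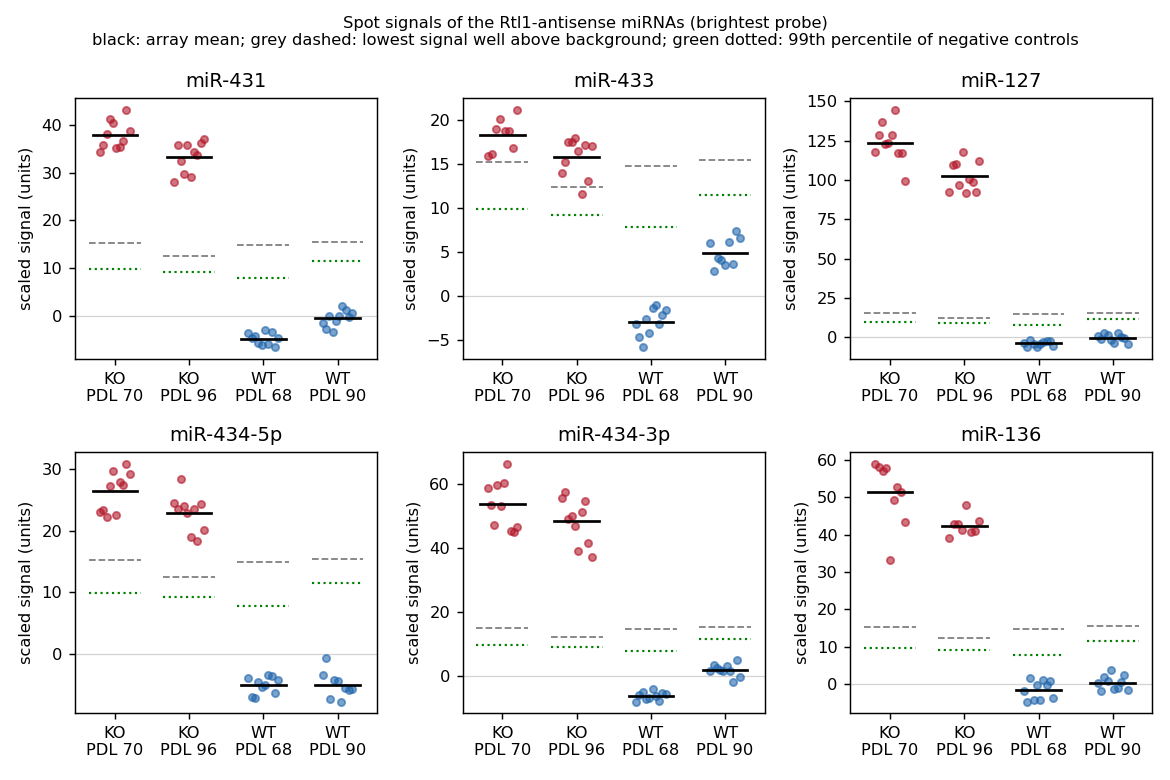
Scaled signal of each spot (points, units on the y axis) of the analysed probe of each member on the KO (red) and WT (blue) arrays at the PDL given on the x axis; black bars are array means, grey dashed lines the lowest signal well above background and green dotted lines the 99th percentile of the negative controls on that array. All KO spots lie above all WT spots in each panel, and the miR-433 panel has the smallest gap (11.6 against 7.35 units). Spots are repeats within an array, and the share of other miRNAs with such a gap was not counted.

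The negative control spots, which match no miRNA, give a background on the same arrays, although not one matched to each probe. Their mean signal was 3.92 ± 2.37 and 3.44 ± 2.23 units on the KO arrays and 3.41 ± 2.05 and 4.31 ± 2.94 units on the WT arrays (SD over 420 to 429 spots), with 99th percentiles of 9.85, 9.24, 7.82 and 11.5 units. All 6 members lay above the 99th percentile on both KO arrays. On the WT arrays 0 members lay above it, and 6 and 5 members lay below the mean of the controls. The level of the members in WT was thus not detectable on these arrays, which is not the same as absent.

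For the comparison of KO with WT, values below 1 unit were set to 1 before log2 was taken. limma was run on the 159 miRNAs that passed the background flag on both arrays of KO, of WT or of each. Of these, 57.9% were called, 43.4% higher in KO and 14.5% lower (Benjamini-Hochberg adjusted p under 0.05). Of the 6 members, 5 rose in KO, 0 fell, and miR-433 did not pass the test. The members passed the filter through KO alone and had to differ in that direction, so this count is a description and not support. The median difference of the 6 was 5.17 on the log2 scale, against 0.31 over all tested miRNAs.

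Because no WT value is a measured level, the fitted difference of a member depends on where low values are set. A lower bound is given with it, which replaces the WT value of each array by the lowest signal well above background there. By this bound miR-127 was at least 7.41-fold higher in KO, with a fitted log2 difference of 6.81 ± 0.12 (SE, n = 2 per group, limma adjusted p = 6.03e-05). The arms of the miR-434 hairpin were at least 3.36-fold higher for miR-434-3p (fitted log2 difference 5.18 ± 0.39, adjusted p = 0.00312) and at least 1.62-fold for miR-434-5p (4.62 ± 0.10, adjusted p = 9.85e-05). The bound of miR-434-5p was below 1, at 0.898, after quantile normalization. For miR-136 the bound was at least 3.07-fold and the fitted difference 5.54 ± 0.12 (adjusted p = 9.85e-05), and for miR-431 they were at least 2.34-fold and 5.15 ± 0.09 (adjusted p = 6.03e-05). For miR-433 the bound was 1.12-fold and the fitted difference 2.94 ± 0.90 (adjusted p = 0.0665), and the bound was below 1 in 4 of 10 alternatives, down to 0.636 after quantile normalization. Normexp background correction was run with an offset of 50 units, which by itself makes ratios of dim signals smaller. With it the bounds of the others were 2.16 for miR-127, 1.37 for miR-434-3p, 1.32 for miR-136, 1.18 for miR-431 and 1.05 for miR-434-5p. The WT arrays of miR-431, miR-127, miR-434-5p and miR-136 were both set to the same low value, so their SE and p hold no spread between WT arrays.

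In signal units, which need no such setting, the KO mean was above the WT mean by 115 units for miR-127, 53.1 for miR-434-3p, 47.3 for miR-136, 38.3 for miR-431, 29.6 for miR-434-5p and 16.1 for miR-433. The call of miR-434-3p was lost without the KO array at PDL 70 (adjusted p = 0.0866) or at PDL 96 (0.0871). miR-433 was called without the WT array at PDL 68 (adjusted p = 0.00548) or at PDL 90 (0.000759).

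**Figure D2:**
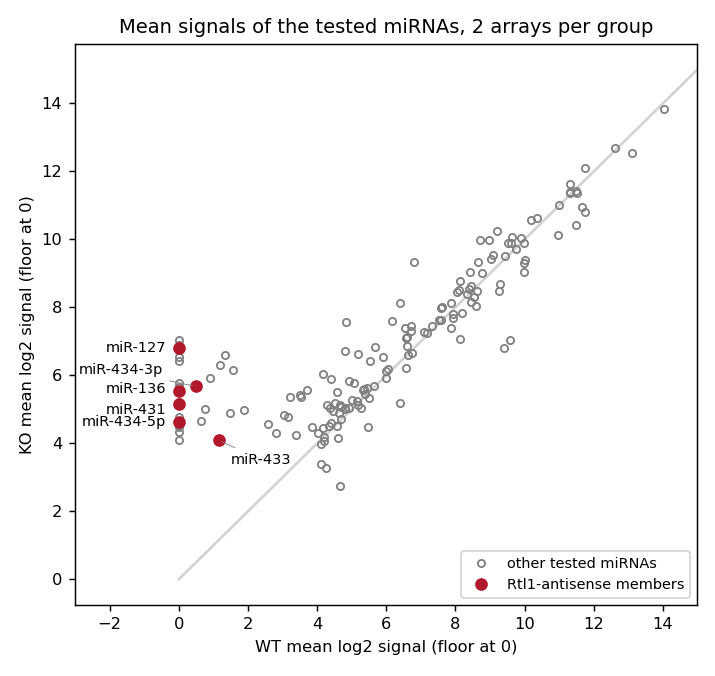
Mean log2 signal of the 159 tested miRNAs in WT (x axis) and KO (y axis), 2 arrays per group, with values below 1 unit set to a log2 of 0; filled red points are the members, open grey points the other miRNAs and the line marks equal signal. miR-431, miR-127, miR-434-5p and miR-136 lie at 0 on the WT axis, while miR-434-3p and miR-433 lie at 0.49 and 1.15.

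Signal in KO and not in WT was not confined to the members. Counting names with the background flag on both arrays of KO and neither of WT gave 35, which is 5.38% of all names and 22.0% of those tested, and the 6 members were among them. So were 2 nearby names of the Dlk1-Dio3 region and 16 of its distal group, both described below. The reverse, the flag on both WT arrays and neither KO array, was seen for 2 names, or 1.26% of those tested. Both KO arrays lay above both WT arrays for 60.4% of the tested miRNAs, the members included.

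The shorter probe of each member, which lacks the base nearest the 5′ end of the miRNA, was dimmer on the KO arrays in every case. Only that of miR-127 passed the flag on both KO arrays, at 23.6 ± 3.18 and 18.7 ± 3.44 units against -2.30 and 1.29 units in WT. The shorter probes of miR-431, miR-434-5p, miR-434-3p and miR-136 gave 2.22 to 11.3 units in KO and -6.79 to 5.01 units in WT, and for each of these members both KO arrays were above both WT arrays. For these probes neither group was well above background on both of its arrays. Their fitted differences are plotted with the alternatives, but depend on the low value set and are not read as folds. The shorter probe of miR-433 ran from -3.73 to 1.65 units over the 4 arrays, so the KO signal of miR-433 rests on its longer probe alone. With the analysed probe, the fitted difference was above 0 for every member in each alternative that kept it, which the plot of the alternatives shows.

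**Figure D3:**
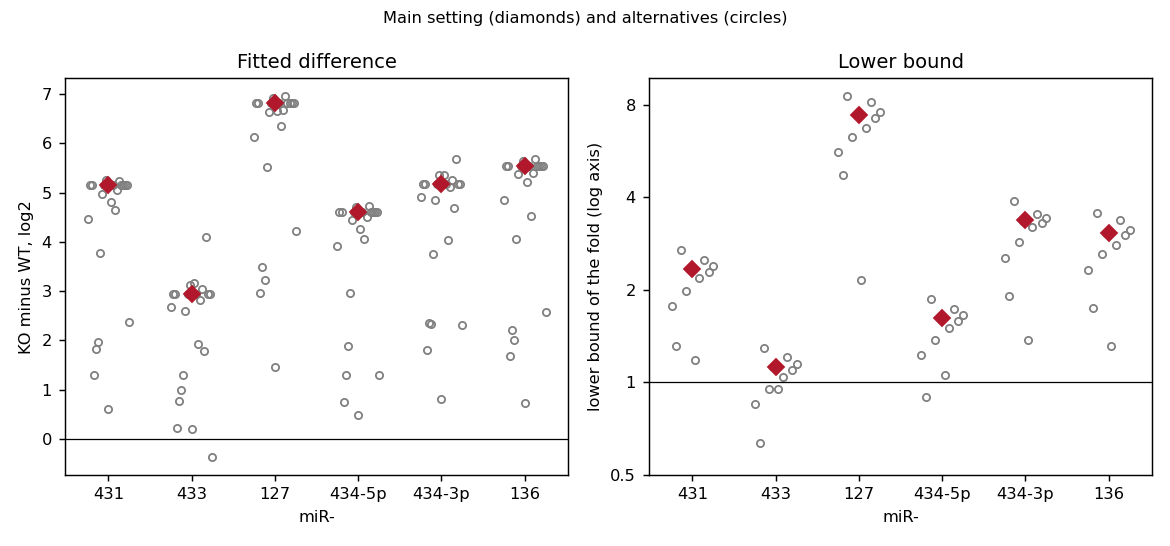
Fitted KO minus WT difference on the log2 scale (left) and lower bound of the fold on a log axis (right) of each member (x axis) under the main processing (red diamonds) and its alternatives (grey circles), among them the shorter probe alone on the left. In the left plot 1 value lies below 0, the shorter probe of miR-433 (-0.36, set by the low value given to unmeasured signals), and in the right plot the bounds below 1 belong to miR-433 and, in 1 case, to miR-434-5p.

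The opposite arms of 4 member hairpins were on the array as starred names, the strand that is usually less abundant. None was well above background on any array, so none was tested. miR-127* and miR-431* gave signals below 0 on all 4 arrays. The brightest probe of miR-433* gave 8.17 and 5.65 units in KO against -1.39 and 3.66 in WT, all within the range of the negative controls.

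Within the KO clone, all 6 members were lower at PDL 96 than at PDL 70, by 0.15 to 0.27 on the log2 scale. The difference was -0.27 ± 0.06 for miR-127 (SE over the spots of both arrays), -0.27 ± 0.09 for miR-136, -0.22 ± 0.08 for miR-433, -0.21 ± 0.08 for miR-434-5p, -0.19 ± 0.06 for miR-431 and -0.15 ± 0.09 for miR-434-3p. These errors hold the spread of spots and not that of cultures, as there was 1 culture at each PDL. Among the 155 tested miRNAs that passed the flag on both KO arrays, 56.1% were lower at PDL 96 and the median difference was -0.01. Of these 155, 26 were at or below the least changed member (-0.15), the 6 members included. Of the other 29 miRNAs seen in KO alone, 22 were lower at PDL 96, with a median of -0.09, and 8 were at or below -0.15.

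The members' difference kept its sign in all 24 values computed with another scaling, with no scaling or with the files' total signal, from -0.36 to -0.02. These values reuse the same KO arrays and are no independent support. The shorter probe gave -0.34 ± 0.11 for miR-127 (SE over spots), but -0.30 ± 0.74 for miR-434-5p and -0.05 ± 0.22 for miR-434-3p. It gave -0.04 ± 0.22 for miR-136 and -0.004 ± 0.32 for miR-431, and that of miR-433 was below 0 units in KO. In limma with genotype in the model, the term for PDL was not called for any member (adjusted p from 0.826 to 0.841) nor for any of the 159 miRNAs, of which 8 (5.03%) had an unadjusted p under 0.05. This term averages over both clones, and the members had no measured level in WT, so it could not test the difference within KO. It was above 0 for miR-433 (1.04) and miR-434-3p (0.42), and from -0.14 to -0.09 for the other members.

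**Figure D4:**
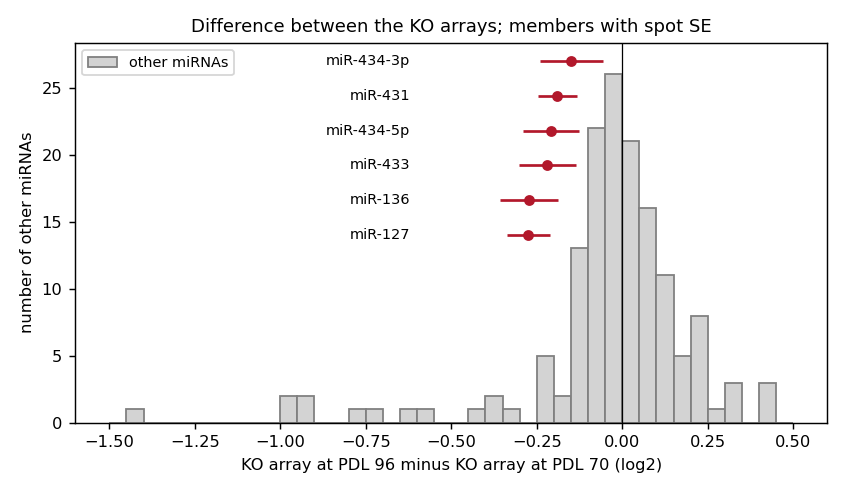
Log2 difference between the KO arrays at PDL 96 and PDL 70 (x axis) for the members (red points with the SE over spots, set one above the other) and as a histogram of the other tested miRNAs with the background flag on both KO arrays (number of miRNAs on the y axis). The members lie between -0.27 and -0.15, while the histogram is centred near 0 with a tail of lower values.

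The probes of the 6 members lie in a stretch of 4.87 kb, and the other miRNAs of the Dlk1-Dio3 region lie on either side of it. The region had 76 names with a probe position on the array. From miR-431 to miR-136*, 6 of 10 names passed the background flag on both KO arrays and 0 on a WT array, and the 4 that were not were the starred strands. Before miR-431, from -26.7 to -4.09 kb, 2 of 10 names were, namely miR-337-3p and miR-337-5p, cut from 1 hairpin close to the members. The KO arrays gave 33.8 and 30.6 units for miR-337-3p, where the WT arrays gave -2.73 and 2.88. For miR-337-5p the KO arrays gave 24.5 and 22.7 units and the WT arrays -3.07 and -1.85. Both were called higher, but like the members they passed the filter through KO alone, so the calls are a description.

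After the members, the array had no name that passed the flag on both KO arrays until miR-379, 118.6 kb from miR-431. miR-341, which lies between, gave 15.4 and 16.7 units in KO against -4.01 and -0.295 in WT, and was well above background on 1 KO array. In the listed distal group from miR-379 to miR-410, transcribed farther along the same maternal strand, 17 of 48 names were tested, 15 rose in KO and 0 fell, against 43.4% and 14.5% of all tested miRNAs. Of the 17, 16 passed the filter through KO alone, which fixed their direction, and their median log2 difference of 4.76 rests on the value to which low WT signals were set. The exception was miR-494, which was well above background on all 4 arrays, at 244 and 157 units in KO against 81.4 and 62.9 in WT.

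**Figure D5:**
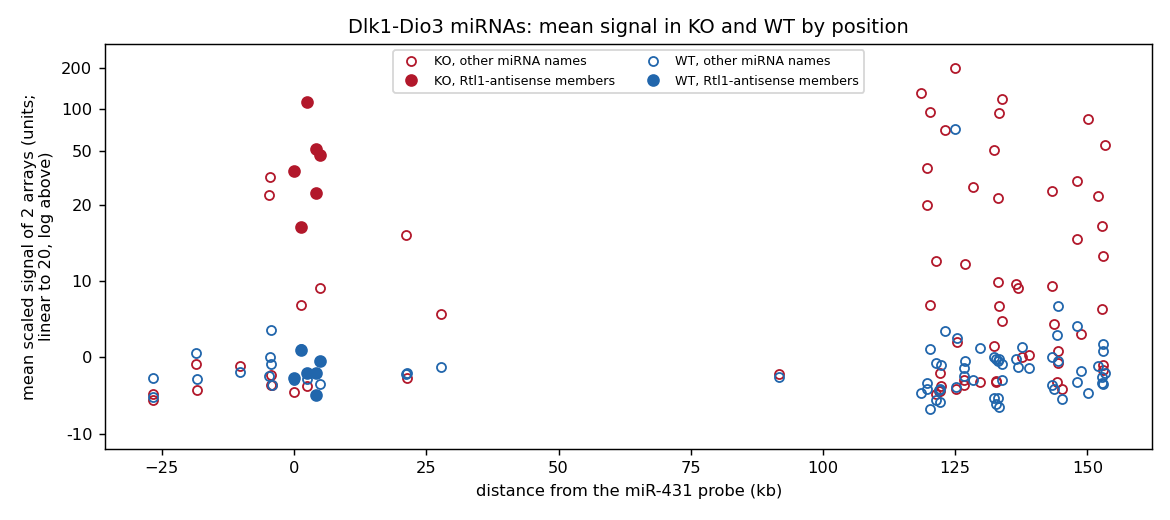
Mean scaled signal of the KO (red) and WT (blue) arrays (y axis in units, linear up to 20 and logarithmic above) for the miRNA names of the Dlk1-Dio3 region by their distance from the miR-431 probe (x axis, kb); filled points are the members. The members lie in the first 4.87 kb after 0, with KO means above 15 units and WT means near or below 0, and the distal group begins at 118.6 kb.

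The tested miRNAs whose profile over the 4 arrays was nearest to the median of the members, each centred on its own mean, were miR-411 (Euclidean distance 0.20 on the log2 scale), miR-495 (0.45), miR-376c (0.55), miR-337-5p (0.62) and miR-541 (0.65). All 5 lie in the Dlk1-Dio3 region, and all 5 had both WT arrays set to the lowest value. With WT at that value, the distance depends on how bright a probe was in KO, so it describes these probes and gives no order of likeness between the miRNAs. Of the 9 listed names from other imprinted regions, 1 was tested. It was miR-296-5p of the Gnas region, with 41.4 and 41.3 units in KO against 5.31 and 15.99 in WT. It did not pass the test (log2 difference 2.17 ± 0.62, adjusted p = 0.0578). Another listed name, miR-483*, was well above background on 1 WT array only and was not tested. Its signals were 10.8 and 8.78 units in KO against 1.83 and 22.3 in WT. miRNAs of imprinted genes outside this list were not examined as a group.

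Across the whole array, 157 and 161 names were well above background on the KO arrays and 125 and 129 on the WT arrays. Of the 8 fibroblast and mesenchymal marker miRNAs, 7 were well above background in both groups, with summed signals of 25619.8 to 26625 units in KO and 27780.2 to 32797 in WT, and among these 7 the main scaling called 2 higher and 1 lower in KO. None of the listed epithelial (6), neural (5), blood (5), endothelial (2), liver (1) and pluripotent (12) markers was well above background on any array, and the summed signal of the neural markers was 18.4 to 21.5 units in KO and 10.8 to 12.5 in WT. That of the pluripotent markers was 19.8 to 24.5 units in KO and 9.78 to 67.0 in WT, and the part of other cells in the members' difference was not tested. Of 4 muscle markers, miR-206 was measured in both groups and was not called. All 4 arrays lay on 1 slide and share 1 scan date, so neither separates KO from WT.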

How the data were processed

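The authors read the single-colour arrays with Agilent Feature Extraction 10.5.1.1 (file headers), whose deposited processed intensity is background-subtracted, on a linear scale and not normalized between arrays. The deposited files also hold raw mean and background intensities, total signals per miRNA name and 0 or 1 flags. The series matrix holds the same processed intensity, within 0.495%, and its column medians were -0.585, -0.581, -2.01 and 0.595 units, so its scale and direction were settled from the values. Of 13715 spots per array, 13000 belonged to 1857 probes for 650 miRNA names, and none of these was saturated.

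Control and outlier spots were left out, and the spots of a probe were averaged. Each array was scaled to its 75th percentile (458 to 562 units) over the 192 probes with the background flag on all arrays. A floor of 1 unit was set, log2 was taken, and the brightest probe stood for a miRNA. A probe was well above background where a share over 0.5 of its spots was flagged so. The comparison of KO with WT used lmFit and eBayes of limma 3.58.1 (R 4.3.3) without covariates, two-sided and checked on simulated data, with Benjamini-Hochberg adjustment over the 159 tested names. The simulated data had a common spread and no values set to a floor, so that check does not cover the members' calls. Lower bounds take the mean over the WT arrays of the higher of the lowest log2 signal well above background (3.89 and 3.95 in WT) and the miRNA's own. Alternatives changed the background correction, scaling, floor, filter, probe rule, model and test, and left out each array. The number of arrays limits the precision. The members, the lists and the rule for named miRNAs (the members and their other strands, the 5 nearest profiles, and for each list up to 4 names above background) were chosen with earlier results of these data known. miR-494 and the miR-433* values were named after their values were seen. Array names can be old. Probe positions are the files' mm9 positions, and sequences are RefSeq's for GRCm38.p6. RefSeq coordinates were used only to place the hairpins within the span of Rtl1.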

Additional observations from a re-analysis of the deposited data

Results flagged for a closer look

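miR-136*, the opposite arm of the miR-136 hairpin, was not tested, but its KO values lay above its WT values. Its brightest probe gave 9.94 ± 1.65 and 8.38 ± 3.03 units on the KO arrays at PDL 70 and 96 (SD over 10 spots each) and -3.91 ± 1.40 and -3.03 ± 2.43 units on the WT arrays (8 and 7 spots). It was well above background on no array. It lay above the 99th percentile of the negative controls on the KO array at PDL 70 (9.85 units) and below it on the KO array at PDL 96 (9.24 units). A shorter probe of miR-136* gave 6.36 and 3.84 units in KO against -2.05 and -3.20 in WT. Such values were not particular to miR-136*, as miR-341 of the same region, also untested, gave 15.4 and 16.7 units in KO.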

How the results depend on the processing

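miR-431, miR-127, miR-434-5p and miR-136 were called in all 20 alternatives with a test. Their WT arrays were tied at the low value in the main setting, and without either KO array no spread was left for them. The count is thus a description and no measure of robustness. miR-434-3p, with WT log2 values of 0 and 0.98, kept a spread between WT arrays. miR-434-3p lost its call with no filter on dim miRNAs (adjusted p = 0.0506) and without either KO array. miR-433 gained one with a floor of 10 units (0.00624), with log2 of signal plus 16 units (0.0302, chosen after seeing the data), with no scaling (0.0435), after quantile normalization (0.0296) and without either WT array. The cause was not tested. The members called numbered 4 to 6. With a filter on all 4 arrays, which left 115 miRNAs, no member remained to test.

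Of the 159 miRNAs, 92 were called (69 higher, 23 lower). The count was 25 (25 and 0) with the 75th percentile over all probes, 60 of 650 names with no filter, 39 in the methods' t-test with a fold change of at least 2 and p under 0.05 before adjustment, 56 in that test after Benjamini-Hochberg, and 37 to 89 when 1 array was left out, the lone array being assumed to vary like the others (39 without KO replicate 1, 37 without KO replicate 2). The directions split 51 and 42 after quantile normalization, 38 and 36 when arrays were scaled to their medians, 43 and 28 from total signal, and 92 and 15 without scaling, where the median log2 difference of all tested miRNAs was 0.12, -0.09, 0.04 and 0.52 against 0.31. No PDL call was made under any scaling run.

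With the analysed probe, the fitted differences were smallest with normexp correction and its offset of 50 units, from 0.21 for miR-433 to 1.46 for miR-127. Over 10 alternatives the lower bounds ran from 2.16 to 8.56 for miR-127, 1.37 to 3.89 for miR-434-3p, 1.32 to 3.55 for miR-136, 1.18 to 2.70 for miR-431, 0.898 to 1.87 for miR-434-5p and 0.636 to 1.30 for miR-433. For miR-433, 6 of the 10 were above 1. The replicate numbers follow the order of the records and pair no samples. With the lower or higher PDL of each clone as a covariate, which sets PDL 70 beside 68 and 96 beside 90, 70 miRNAs and 5 members were called. A block for slide or scan was not run, as there was 1 of each.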
